A study of Mus musculus with 6 samples.

Results

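Border macrophages are the resident macrophages of the meninges, the perivascular spaces and the choroid plexus. The marker genes described here are *Mrc1*, *Lyve1*, *Cd163*, *Stab1*, *Folr2*, *Dab2*, *Pf4*, *Igfbp4*, *F13a1* and *Cbr2*, which are 10 of the 23462 genes tested on the arrays and are read by 16 of the 56605 probes. They were chosen by symbol from lists of border macrophage genes whose difference between the genotypes on these same 6 arrays was already known, and each of them had been seen to be lower in the knockout. The difference between the genotypes in these genes is for that reason given as a description. Where limma results are printed for them, these describe the genes and are not read as evidence. A probe was taken for a gene when its transcript accession, without the version, belonged to that gene in RefSeq.

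Microglia were sorted as live CD45low CD11b+ Cx3cr1+ cells, after enrichment on Percoll, from the brains of young C57BL/6 mice of 2 genotypes. B41HET mice carried 1 Bhlhe41 dTomato-Cre allele beside a wild-type allele (Bhlhe41 dTomato-Cre/+), and B41KO mice carried this allele on both chromosomes (Bhlhe41 dTomato-Cre/dTomato-Cre). In the allele a cassette for the red fluorescent protein dTomato and for Cre recombinase, with its own end of transcription, stands upstream of the *Bhlhe41* start codon, so that the *Bhlhe41* promoter drives dTomato and Cre and translation does not go on into Bhlhe41. Both genotypes carried dTomato and Cre, from 1 copy in B41HET and from 2 in B41KO, there was no wild-type group, and the allele is present in all cells of the mouse. Each genotype had 3 samples, pooled from several mice each according to the methods, whereas the labels can be read as 3 mice, and 1 array was run per sample. No treatment was given.

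Bhlhe41 is a basic helix-loop-helix repressor that binds E-boxes, and microglia are the macrophages of the brain parenchyma. Microglia and border macrophages both carry CD11b and Cx3cr1, and border macrophages differ by endocytic and scavenger receptors at their surface and, for many of them, by a higher level of CD45. The gate on low CD45 is meant to leave border macrophages out, but it can pass some of them. Most of the genes here are not restricted to that cell type: *Lyve1* is also a marker of lymphatic endothelium, *Pf4* of platelets and megakaryocytes, *F13a1* of monocytes, and *Stab1* of sinusoidal endothelium.

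The promoters are shown because the genes lay on the same side of the comparison and because the protein that B41KO mice lack binds DNA at E-boxes. RefSeq windows on GRCm38.p6, each of 250 bases before to 50 bases after a transcription start, were at hand for 9 of the 10 genes, 12 windows in all, and *Lyve1* had no entry. The upstream 250 bases of the 4 genes whose windows hold the letters GAGGAAG or their complement are printed 5′ to 3′ on the gene's own strand, in lower case, with the letters CANNTG (any E-box) and GAGGAAG or its complement in capitals. For *F13a1* the first of its windows is shown.
Mrc1, chr2:14229164-14229413, plus strand: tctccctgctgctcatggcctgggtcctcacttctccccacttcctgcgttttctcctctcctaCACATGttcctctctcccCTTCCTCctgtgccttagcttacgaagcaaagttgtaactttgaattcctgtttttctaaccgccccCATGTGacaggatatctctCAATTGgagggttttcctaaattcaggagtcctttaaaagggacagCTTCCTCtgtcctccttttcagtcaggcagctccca
Cbr2, chr11:120732022-120732271, minus strand: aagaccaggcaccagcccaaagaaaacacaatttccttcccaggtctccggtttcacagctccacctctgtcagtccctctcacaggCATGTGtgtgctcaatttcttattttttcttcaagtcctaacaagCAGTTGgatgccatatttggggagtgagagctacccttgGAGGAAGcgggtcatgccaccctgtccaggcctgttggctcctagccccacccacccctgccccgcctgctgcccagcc
Pf4, chr5:90772185-90772434, plus strand: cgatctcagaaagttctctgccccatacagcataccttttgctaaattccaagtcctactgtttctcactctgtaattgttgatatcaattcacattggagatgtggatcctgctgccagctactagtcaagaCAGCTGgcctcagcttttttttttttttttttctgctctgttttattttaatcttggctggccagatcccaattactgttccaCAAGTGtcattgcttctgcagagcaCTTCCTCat
F13a1, chr13:37050245-37050494, minus strand: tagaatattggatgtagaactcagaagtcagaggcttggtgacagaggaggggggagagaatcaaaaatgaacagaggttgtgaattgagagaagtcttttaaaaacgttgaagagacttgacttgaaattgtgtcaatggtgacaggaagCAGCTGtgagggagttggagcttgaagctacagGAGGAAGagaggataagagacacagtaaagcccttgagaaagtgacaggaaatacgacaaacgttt

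The letters CACGTG, the E-box that Bhlhe41 binds best, were in 0 of the 12 windows, and in 7.15% of the 32851 RefSeq windows of the mouse. Their absence says only that these letters are not in these windows. CANNTG was in all 12 windows, and in 72.3% of all windows. GAGGAAG, letters of the kind bound by the macrophage lineage factor PU.1, was in 5 of the 12 windows on either strand, belonging to *Mrc1*, *Cbr2*, *Pf4* and *F13a1*, and in 13.6% of all windows. None of these matches overlapped another in the 12 windows. In 22 windows of other border macrophage genes CACGTG was in 0, CANNTG in 16 and GAGGAAG in 4. These counts describe letters, not bound sites.

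The arrays have 1 colour, and a probe's brightness is its measure of a transcript in a sample. Values are the log2 of this signal after quantile normalization over the 6 arrays, and levels of different probes are not comparable with each other. A probe was flagged by the scanner software as well above background or not on each array. Precision is limited by the number of arrays. Between 39654 and 42719 probes per array were well above background (70.1% to 75.5%), and 0 spots were saturated. All arrays lay on 1 slide, with the 3 B41HET arrays and B41KO replicate 1 in row 1 and the other two B41KO arrays in row 2. Read by its brightest probe, *Bhlhe41* stood at 7.95, 7.87 and 7.65 in the libraries labelled B41HET and at 8.56, 7.84 and 8.21 in those labelled B41KO, and its other probe also had a higher mean in the latter (by 0.33 on the log2 scale). Neither difference passed the limma test (adjusted p = 0.330 and 0.203 with Benjamini-Hochberg adjustment). With transcription ended in the cassette, a lower signal downstream of it would be looked for in B41KO, and neither probe showed one. This transcript therefore did not check the genotype labels, which were used as given. By western blot the paper reported loss of the Bhlhe41 protein in B41KO microglia, which does not check the labels of these arrays. The 15 microglia markers were well above background on all 6 arrays. The defining border markers *Mrc1* and *Lyve1* were well above background on the 3 B41HET arrays and on no B41KO array. The RNA comes from a whole sorted population, in which fewer cells of a type and less RNA per cell cannot be told apart.

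All 16 probes of the 10 genes were lower in each of the 3 B41KO samples than in each of the 3 B41HET samples. Over all genes, 18.0% had every B41KO sample below every B41HET sample, and since the genes were chosen on this contrast nothing is read from that difference. The median level of the genes in a sample, by the brightest probe of each, was 6.57, 6.51 and 6.54 in B41HET and 5.23, 5.45 and 5.24 in B41KO. The median difference between the genotypes was -1.07 on the log2 scale, or -0.87 with *Mrc1* and *Lyve1* at their bounds, beside a median of 0.01 over all genes tested. The sum of the linear signals of the genes ranged from 3831 to 4242 in B41HET and from 2383 to 2617 in B41KO, most of it from *Stab1* and *Igfbp4*, and without them from 601 to 645 and from 354 to 373.

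**Figure D1:**
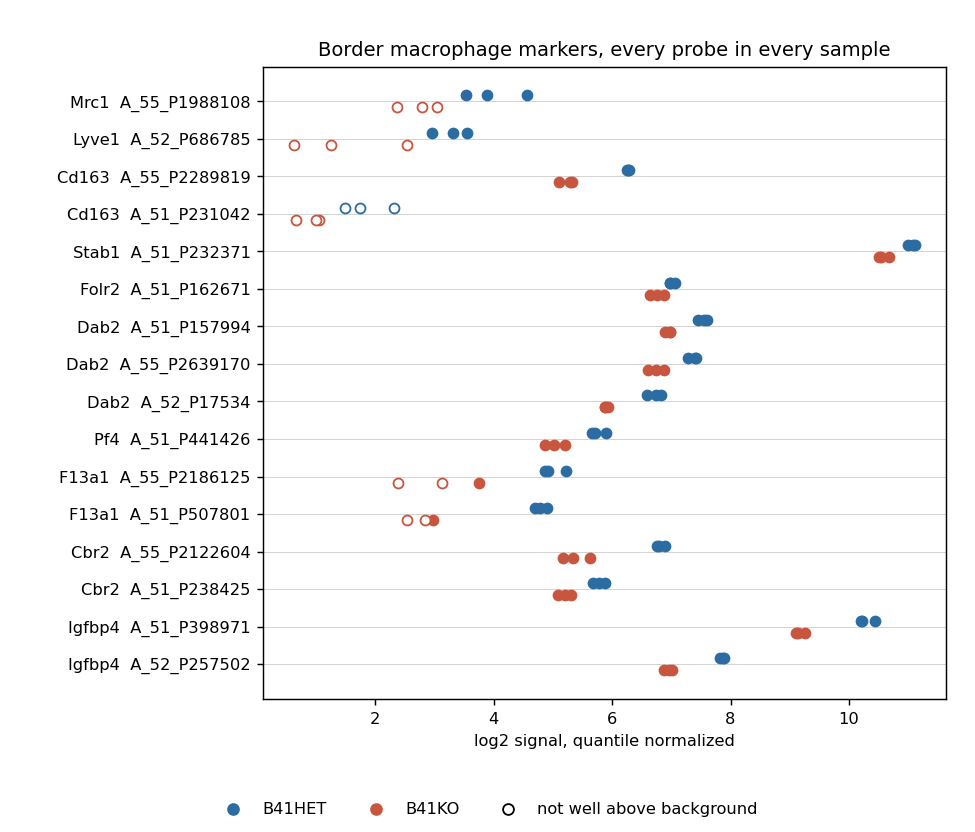
Log2 quantile-normalized signal (horizontal axis) of each of the 16 probes of the border macrophage markers (rows) in the 3 B41HET samples (blue) and the 3 B41KO samples (red), with open circles for signals not well above background. No B41KO point reaches a B41HET point in any row, the open circles lie in *Mrc1*, *Lyve1*, *F13a1* and the dim *Cd163* probe, and rows are not comparable with each other.

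Among the surface receptors, *Mrc1* encodes the mannose receptor CD206, the marker most used to tell border macrophages from microglia. Its probe gave 4.56, 3.53 and 3.88 in B41HET and 2.79, 2.37 and 3.05 in B41KO. None of the B41KO values was well above background. With each of them raised to the faintest well-measured signal of its array, the mean of B41HET was 2.12-fold higher. This bound leaves out the spread between samples. The measured difference was -1.26 on the log2 scale (standard error 0.31), and -0.97 without B41HET replicate 1. Before normalization the processed signal of the same probe was 24.9, 12.8 and 14.2 units in B41HET and 6.46, 5.61 and 7.72 units in B41KO, so that B41HET replicate 1 stood above the other two B41HET samples and *Mrc1* was faint even where it was measured.

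*Lyve1*, which encodes a receptor for hyaluronan, marks a subset of border macrophages along vessels and in the meninges. Its log2 signal was 2.96, 3.31 and 3.55 in B41HET and 2.53, 1.25 and 0.63 in B41KO. Here too no B41KO array was well above background, and the bound, found in the same way, was 1.28-fold. The measured difference was -1.80 (standard error 0.49). With all B41KO values near background, their order among themselves has no meaning.

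*Cd163* encodes the scavenger receptor for haptoglobin bound to haemoglobin. The brighter of its probes gave 6.24, 6.26 and 6.28 in B41HET and 5.11, 5.29 and 5.32 in B41KO, well above background on all 6 arrays. The difference was -1.02 on the log2 scale (standard error 0.08), a 2.03-fold lower mean in B41KO, and the gap between the lowest B41HET and the highest B41KO sample was 0.93. Its other probe was below that mark on all 6 arrays and gives no fold.

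*Stab1* encodes stabilin-1, a scavenger receptor of endocytic macrophages that microglia also express. It gave 11.11, 11.09 and 11.00 in B41HET and 10.54, 10.68 and 10.52 in B41KO. The difference of -0.49 (standard error 0.08) was small but exceeded the spread between samples, with a gap of 0.32 between the groups. *Folr2*, which encodes folate receptor beta, showed the smallest difference of the 10 genes. It gave 6.98, 6.98 and 7.06 in B41HET and 6.88, 6.65 and 6.75 in B41KO, a difference of -0.25 (standard error 0.09), with the groups only 0.10 apart.

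*Dab2* encodes an endocytic adaptor that links cargo receptors to clathrin, and it was read by 3 probes. The brightest gave 7.61, 7.55 and 7.45 in B41HET and 6.98, 6.99 and 6.89 in B41KO. All 3 probes were well above background on every array, and their differences were -0.58, -0.63 and -0.82. The groups did not overlap on any of the probes.

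Among the secreted products, *Pf4* encodes the chemokine CXCL4, which platelets store and which border macrophages transcribe. It gave 5.90, 5.65 and 5.70 in B41HET and 5.02, 5.21 and 4.87 in B41KO, a difference of -0.72 (standard error 0.12). In a platelet list that leaves out *Pf4*, 0 of 8 genes passed the limma test, 2 of them had an unadjusted p under 0.05, and the summed signal was 1748 to 1859 in B41HET and 1675 to 1857 in B41KO. A few bright genes made up most of that sum, so it does not speak for each gene of the list. The platelet chemokine gene *Ppbp* stayed near background on every array, and *Gp9*, a platelet glycoprotein gene, had means of 9.27 in B41HET and 8.87 in B41KO. It was the 1 gene of the list that was lower, while 7 were higher, *Gp6* by 0.61, and the median of the list was 0.08.

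*Igfbp4* encodes a secreted protein that binds insulin-like growth factors. The brighter of its probes gave 10.43, 10.23 and 10.20 in B41HET and 9.10, 9.26 and 9.14 in B41KO, a difference of -1.12 (standard error 0.10) or 2.17-fold. The other probe gave 7.87, 7.88 and 7.82 in B41HET and 7.01, 6.95 and 6.88 in B41KO, a difference of -0.91 (standard error 0.07). Both probes were well above background throughout, with gaps of 0.94 and 0.80 between the groups.

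*F13a1* encodes the A subunit of coagulation factor XIII, a transglutaminase that monocytes and tissue macrophages also make. Its brighter probe gave 5.23, 4.92 and 4.87 in B41HET and 3.12, 2.38 and 3.76 in B41KO, and only B41KO replicate 3 was well above background there. Its other probe gave 4.78, 4.91 and 4.70 in B41HET and 2.54, 2.97 and 2.84 in B41KO, and there only replicate 2 was. The differences of -1.92 (standard error 0.35) and -2.01 (standard error 0.13) rest on signals that were near background in most B41KO samples. The probes did not order the B41KO samples alike.

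*Cbr2* encodes a carbonyl reductase. Its brighter probe gave 6.89, 6.76 and 6.80 in B41HET and 5.34, 5.62 and 5.16 in B41KO, a difference of -1.44 (standard error 0.13) or 2.71-fold. Its other probe gave 5.88, 5.78 and 5.68 in B41HET and 5.21, 5.31 and 5.08 in B41KO, a difference of -0.58 (standard error 0.09). Both probes separated the genotypes and both ordered the B41KO samples alike, with replicate 2 highest and replicate 3 lowest, but the difference of the dimmer probe was less than that of the brighter.

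Within a genotype the genes did not single out 1 low sample. B41HET replicate 1 was the highest B41HET sample in 7 of the 10 genes and the lowest in 2, and B41KO replicate 2 was the highest B41KO sample in 5 and the lowest in 3. All 10 genes were well above background on each B41HET array, against 7, 7 and 8 on the B41KO arrays. Within slide row 1, the only row that holds both genotypes, B41KO replicate 1 was below all B41HET samples in 10 of the 10 genes. That count follows from the lack of overlap given above, for genes chosen on this contrast, and nothing is read from it. The median distance of B41KO replicate 1 from the B41HET mean was -0.95, and that of the B41KO samples of row 2 was -1.02. The value within the row rests on a single B41KO array, and *Folr2* differed by -0.13 in row 1 and by -0.31 in row 2. The part of the slide row in the differences was not tested.

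The threshold of an adjusted p of 0.05 or less in limma and an absolute log2 difference of 0.5 or more was passed by 6 of the 10 genes in the lower direction, *Cd163*, *Cbr2*, *Pf4*, *F13a1*, *Dab2* and *Igfbp4*, and by 11 of the 16 probes. Over all genes 5.45% passed it in either direction and 4.01% in the lower direction, and over all probes 3.34% passed it as lower. The genes were chosen on this contrast, so nothing is read from their count. *Stab1* missed the size of 0.5 by 0.01, *Folr2* was small, and *Mrc1* and *Lyve1* were faint. With any 1 sample left out, 3 or 4 of the 10 genes passed, with 3 where B41HET replicate 1 or 2 or B41KO replicate 2 was the one left out, and *Lyve1* was among the 4 without B41KO replicate 1. Of the 6 genes, *Cd163*, *Cbr2* and *Igfbp4* passed in each of the 6 cases. With the slide row as a block 1 gene passed.

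**Figure D2:**
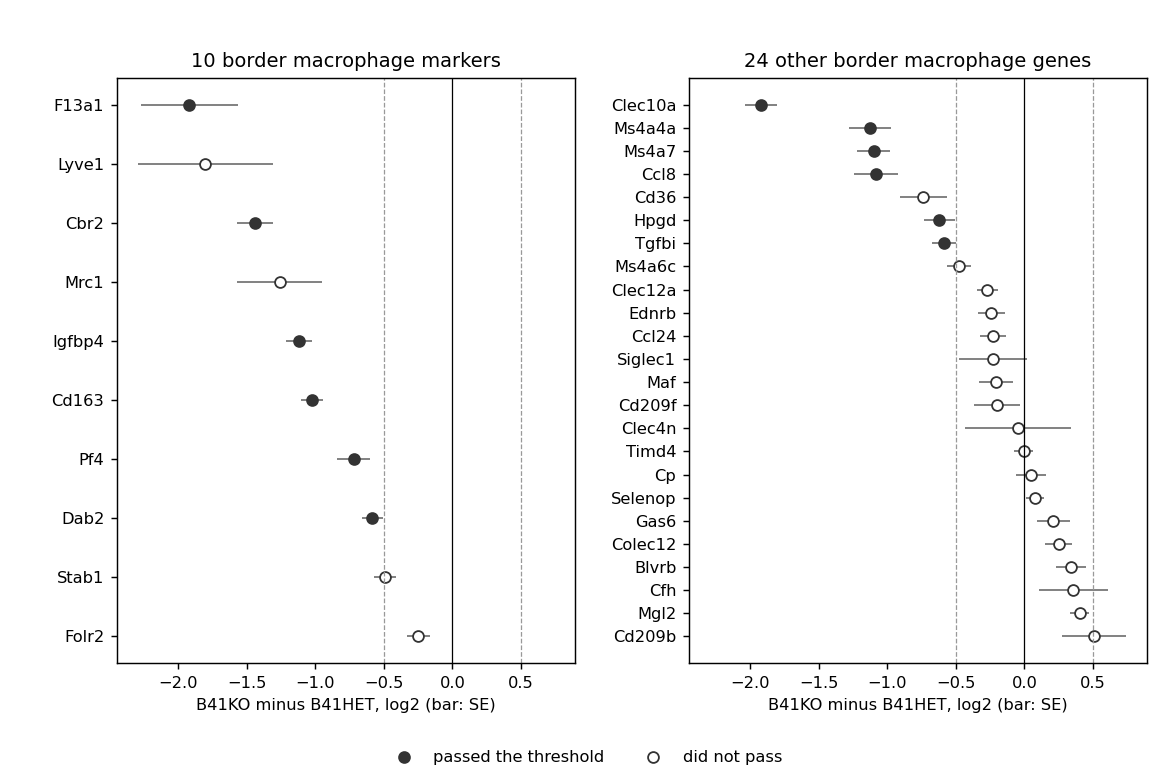
Difference of B41KO minus B41HET on the log2 scale (horizontal axis, bars are standard errors, n = 3 samples per genotype) for the brightest probe of the 10 border macrophage markers (left) and of 24 other border macrophage genes (right), filled where the threshold was passed and with dashed lines at 0.5. The 10 markers, chosen on this contrast, are all below 0, whereas the other list runs from *Clec10a* at -1.92 to genes above 0.

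A second set of 24 genes known from border macrophages, none of them among the 10, shows how far the same cell type's other genes went the same way. It was not picked for how its genes moved, but it was written with earlier results of these arrays known. Of the 24 genes 16 were lower and 8 higher in B41KO, 6 passed the threshold as lower and 0 as higher, and 9 and 3 had an unadjusted p under 0.05 in limma in those directions. Over all genes 4.01% passed as lower and 1.44% as higher. The median difference was -0.22, against the 0.01 of all genes, and 11 genes had every B41KO sample below every B41HET sample while 4 had them all above, beside 18.0% and 14.2% of all genes. Their summed signal ran from 29022 to 32449 in B41HET and from 32278 to 34816 in B41KO. The bright gene *Colec12* carried the rise, and without it the sum was 13830 to 14345 in B41HET and 13510 to 14227 in B41KO. With any 1 sample left out between 1 and 4 of the 24 genes passed, the fewest without B41HET replicate 2 or B41KO replicate 2. A fit that holds slide row as a block left 1.

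The 6 genes that passed as lower were *Clec10a*, *Ms4a4a*, *Ms4a7*, *Ccl8*, *Hpgd* and *Tgfbi*. *Clec10a*, a C-type lectin of macrophages and dendritic cells, gave 6.49, 6.33 and 6.35 in B41HET and 4.45, 4.29 and 4.66 in B41KO, a log2 difference of -1.92 (standard error 0.12, adjusted p = 0.0023 in limma). *Ms4a7*, a membrane protein gene that separates border macrophages from microglia, gave 4.95, 4.91 and 4.59 in B41HET and 3.62, 3.71 and 3.83 in B41KO (-1.10, adjusted p = 0.011 in limma). Neither gene had overlapping groups, and for both of them the second probe also passed the threshold. The differences were -1.13 for *Ms4a4a*, of the same gene family, -1.08 for the chemokine gene *Ccl8*, -0.62 for *Hpgd*, which encodes a prostaglandin-degrading enzyme, and -0.58 for *Tgfbi*, which encodes a matrix protein (adjusted p = 0.019, 0.022, 0.038 and 0.022 in limma). *Siglec1*, the sialoadhesin of perivascular and meningeal macrophages, gave 5.82, 5.71 and 5.49 in B41HET and 5.001, 5.42 and 5.93 in B41KO, where the groups overlapped (-0.23, adjusted p = 0.65 in limma), and its dimmer probe did not pass either (-0.67). *Mgl2*, a lectin gene related to *Clec10a*, was higher in all B41KO samples than in any B41HET sample by its brightest probe (0.40, adjusted p = 0.030 in limma), but its other probe, well above background on all arrays, had every B41KO sample below every B41HET sample (-0.29, adjusted p = 0.12), so its direction depends on the probe. *Ms4a6c* was lower (-0.48, adjusted p = 0.036 in limma) and missed the threshold on size. *Colec12*, *Blvrb* and *Selenop* were the other genes with every B41KO sample above every B41HET sample (0.25, 0.34 and 0.08, none of which passed). *Timd4* was well above background on 0 arrays.

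Markers of other cells moved between the same samples, and their part in the differences of the 10 genes was not tested. Neutrophils are not the cells that the gate on low CD45 and on Cx3cr1 is meant to keep, and whether any passed it was not tested. Of 12 neutrophil and monocyte genes 10 passed as lower and 0 as higher, with a median of -2.35 and a summed signal of 31057 to 35010 in B41HET and 5890 to 6391 in B41KO. The lactoferrin gene *Ltf* differed by -3.17, *Ngp* by -3.13, *S100a9* by -2.52, *Retnlg* by -2.51, *Ly6g* by -2.48 and *S100a8* by -2.22, and no gene of the list was below background throughout. Monocytes also transcribe *F13a1*, and of the monocyte genes of the list *Ly6c2* (-2.10) and *Plac8* (-2.68) passed, whereas *Ccr2* (-0.30) and *Vcan* (0.20) did not. Of 12 endothelial genes, a cell type that shares *Lyve1* and *Stab1*, *Pecam1* (-1.68) and *Ly6c1* (-1.79) passed as lower, and the median of the list was -0.17. Its summed signal was 1286 to 1406 in B41HET and 524 to 573 in B41KO. Most of that fall came from *Pecam1* and *Ly6c1*, whose cells of origin were not tested. Without them the sum was 242 to 265 in B41HET and 223 to 246 in B41KO. All 6 arrays measured 6 of the 12 endothelial genes well above background, among them *Cldn5* (-0.13), *Kdr* (-0.01), *Egfl7* (0.13) and the lymphatic gene *Prox1* (-0.20). *Cdh5*, *Flt1*, *Tek* and *Flt4* were so on 0 arrays. Of 10 genes that respond to cell isolation, 6 passed as lower, with a median of -0.57 and a sum of 50284 to 52177 in B41HET and 27632 to 29592 in B41KO. They were *Hspa1a* (-1.98), *Atf3* (-1.27), *Dusp1* (-1.11), *Fosb* (-0.92), *Fos* (-0.60) and *Jun* (-0.55), and the near-identical *Hspa1b* (0.25) did not pass, so the heat shock genes are uncertain.

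In each of the lists that follow, at most 1 gene passed. *Fcrls* alone of the 15 microglia genes passed, as lower (-0.76), with a summed signal of 206075 to 225606 in B41HET and 202753 to 214209 in B41KO. *P2ry12*, a receptor of resting microglia, had means of 12.83 in B41HET and 12.55 in B41KO. Of the 15 genes 8 were lower and 7 higher, with a median of -0.05. One gene each passed, as lower, of 8 dendritic cell genes (*Cd209a*) and of 10 lymphocyte genes (*Cd79a*, -0.99). The call of *Cd209a* depends on the probe, with -1.74 for the brightest and -0.12 for its other one (adjusted p = 0.018 and 0.72 in limma). The summed signal of the dendritic cell genes, a cell type that shares *Clec10a*, was 1545 to 1671 in B41HET and 1451 to 1630 in B41KO, most of it from *Batf3* (0.03). Without that gene it was 297 to 343 and 214 to 243, a fall that came mostly from the brightest probe of *Cd209a*. Of the dendritic cell genes 4 were lower and 4 higher, with a median of -0.08. Of 8 fibroblast and mural cell genes, which mark the tissue around border macrophages, and of 5 sex-linked genes none passed in limma, with 0 and 1 at an unadjusted p under 0.05, and *Lum*, *Pdgfrb*, *Rgs5* and *Xist* were well above background on 0 arrays. The sex-linked genes had a median of -0.23, with 4 lower and 1 higher. Their summed signal was 448 to 498 in B41HET and 352 to 405 in B41KO.

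**Figure D3:**
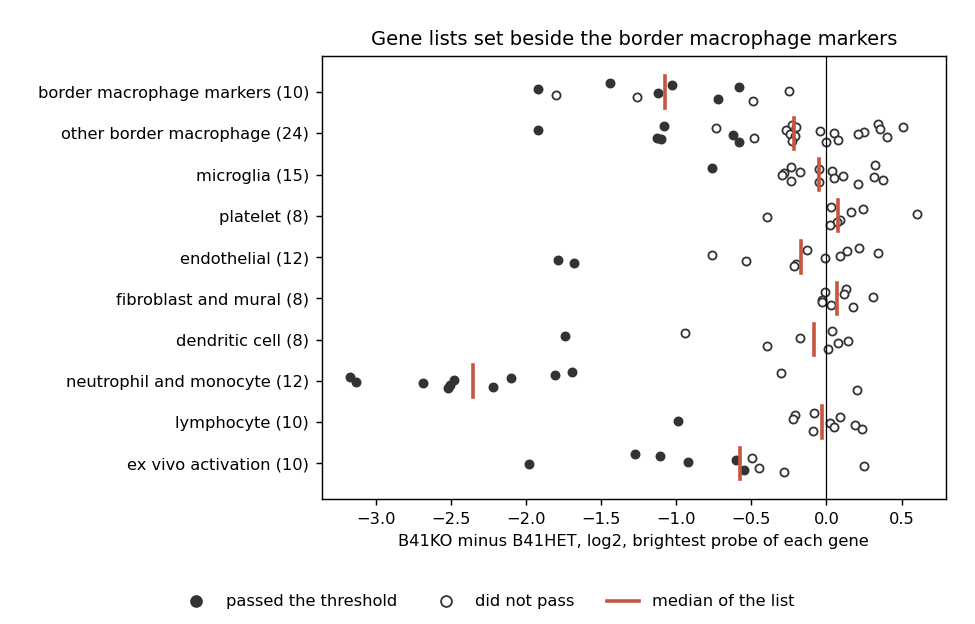
Difference of B41KO minus B41HET on the log2 scale (horizontal axis) for the brightest probe of each gene in 10 lists (rows, number of genes in parentheses), filled where the threshold was passed, with the list's median as a red line. The median of the border macrophage markers, chosen on this contrast, is -1.07, that of the other border macrophage genes -0.22 and that of the neutrophil and monocyte genes -2.35.

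The sizes changed when the signals were built in another way. With normexp, which here started from the median spot signals in place of the processed ones and added an offset of 50 units to each, the median over the 10 genes was -0.44, *Mrc1* differed by -0.21 and *Lyve1* by -0.16, while the bright *Igfbp4* kept -1.11 and *Stab1* -0.45. Genes well above background on every array also came out smaller, with -0.53 for *Cd163*, -0.73 for *Cbr2*, -0.38 for *Pf4* and -0.42 for *Dab2*, and *Pf4*, *Dab2* and *F13a1* (-0.48) no longer passed. Under each of the 14 alternative settings run for single genes, normexp included, every one of the 10 genes stayed lower in B41KO.

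**Figure D4:**
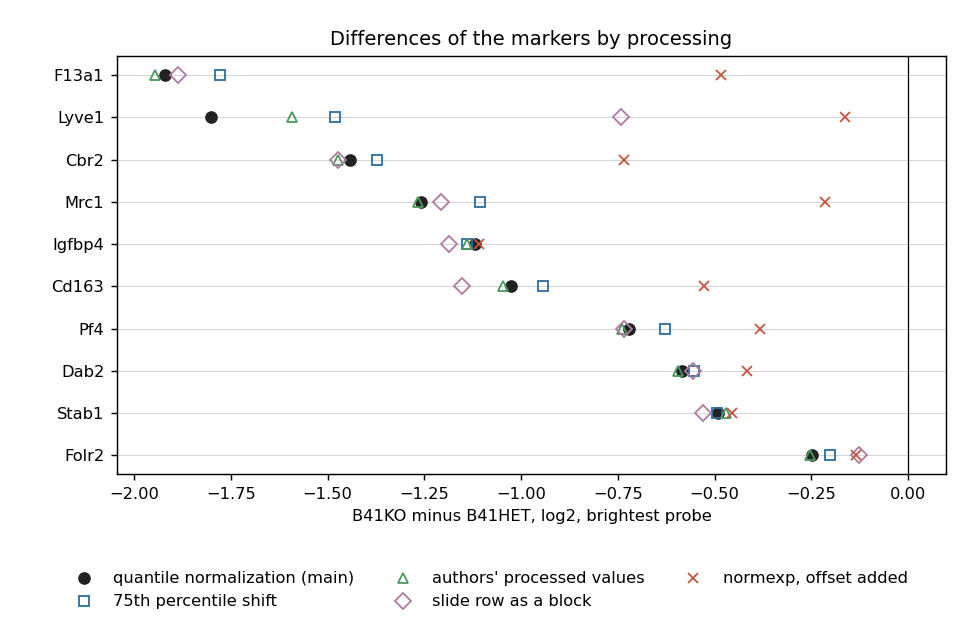
Difference of B41KO minus B41HET on the log2 scale (horizontal axis) for the brightest probe of each border macrophage marker (rows) under 5 ways of processing the same arrays. The crosses, for normexp with an offset, lie nearer to 0 for faint genes such as *Mrc1* (-0.21) and *F13a1* (-0.48).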

How the data were processed

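RNA of sorted microglia, 3 B41HET and 3 B41KO samples, was labelled in 1 colour and hybridised to SurePrint G3 Mouse arrays. The authors deposited scanner intensities from Feature Extraction 11.5.1.1, background-subtracted within each array and not normalized between arrays, in which the faintest spots carry a small positive surrogate. They also deposited a matrix of 56745 log2 values that share the same column median (5.10131), of unstated scale, which ranked probes as the scanner output does and served as an alternative. Here control spots (59305 of 62976 spots kept) and outlier spots (95 to 136 per array) were left out, log2 intensities were quantile normalized and averaged per probe, and genotypes were compared with limma 3.58.1 in R 4.3.3 (with data.table version 1.17.8), with genotype as the sole term and Benjamini-Hochberg adjustment over the 56601 probes tested. Quantile normalization, limma and the threshold follow the methods. Plots used Python 3.11.15 with matplotlib 3.10.9 and pandas 2.3.3. The script was tested on simulated data.

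Of 56605 probes, 33767 (59.7%) were named through RefSeq accessions on GRCm38.p6. The array design uses mm9, so no probe coordinates are given. The brightest probe by mean signal stood for a gene where 1 value was needed. For a probe not well above background in any sample of a genotype, the bound uses, per array, the higher of its own value and the faintest signal that any well-measured probe has on that array. The members and the gene lists (other border macrophage, microglia, platelet, neutrophil and monocyte, endothelial, fibroblast and mural, dendritic cell, lymphocyte, ex vivo activation, sex genes) were chosen with earlier results of these data known. The rule for naming took from each list the genes passing, at most the 6 most changed, and its first 2. Of the latter, *Tmem119*, *Cd79b*, *Flt3* and those of the fibroblast and sex lists other than *Xist* are left out. Genes not well above background on any array, and *Gp6*, *Kdr*, *Egfl7*, *Prox1*, *Batf3*, *Ccr2*, *Vcan*, *Ly6c2*, *Hspa1b*, *Mgl2*, *Ms4a6c*, *Colec12*, *Blvrb* and *Selenop*, were named after their values were seen. The labels do not say that samples come from separate animals, so p-values measure the spread between samples. Replicate numbers did not pair the samples. The result of 1 further list is not reported here.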

Additional observations from a re-analysis of the deposited data

How the results depend on the processing

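The direction of the difference was lower in B41KO for all 10 genes under each of the 14 alternatives run for single genes. The count of passing genes stayed at 6, with medians from -1.09 to -0.998, under the 75th percentile shift, the authors' values, outlier spots kept, trend and robust variance and the mean over probes, and the filter on dim probes gave 8 with *Mrc1* and *Lyve1*, which met that filter through B41HET alone, so nothing is read from the gain. Normexp on median signals with an offset of 50 gave 3 passing genes, a median of -0.44 and 1500 passing probes in place of 2867. With the slide row as a block 1 of the 10 genes, 1 of the other border genes and 444 probes passed, with 7 and 11 genes lower at an unadjusted p under 0.05 and a median over the 10 genes of -0.95. With the replicate block, whose numbers share no pairing (same-number correlations of 0.028, 0.014 and 0.048, and not every sample correlated best with its own number), 0 of the 10 genes, 0 of the other border genes and 42 probes passed in limma, with 9 and 10 genes lower at an unadjusted p under 0.05. Leaving out 1 sample in turn left 3 to 4 of the 10 genes (median -1.09 to -1.004), 1 to 4 of the 24 other border genes and 792 to 1525 probes. Among these fits *Pf4* passed in none, *F13a1* passed only without B41KO replicate 3 and *Dab2* only without B41HET replicate 3, and *Lyve1*, not among the 6, passed without B41KO replicate 1. Of the probes passing, 66.0% were lower with quantile normalization, 54.2% with the 75th percentile shift, under which the median of all genes was 0.10, 71.8% with normexp and 63.7% with the authors' values. Signals near background limit *Mrc1*, *Lyve1* and *F13a1*, for which sizes are bounds or uncertain.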
